A study of Mus musculus with 16 samples.

Results

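Forkhead transcription factors are the genes named Fox in the annotation of an Affymetrix mouse array that followed P19CL6 cells as they turned into beating heart muscle under dimethyl sulfoxide (DMSO). P19CL6 is 1 clonal line of mouse embryonal carcinoma cells. Members were all genes whose single gene symbol starts with Fox, a letter from a to s and a digit, each represented by the probe set with the highest mean over the 16 arrays. The rule found 38 symbols, of which 37 were forkhead genes and 1, Foxl2os, was the opposite-strand transcript of Foxl2. Of the 37 forkhead genes, 18 were above log2 4 on at least 2 arrays and were tested among 10803 genes, 2 were above it on 1 array only, and 17 were dim, that is, never above log2 4. The array named 18194 genes in all through single-gene probe sets. The groups, each of total RNA from whole cultures, were 3 growth samples (no DMSO, passaged every 48 h), and 3 samples at day 4, 2 at day 6, 3 at day 8, 3 at day 10 and 2 at day 12 of culture in 1% DMSO with new medium every 48 h. The study called its samples independent and gave each a letter from A to C. Growth was the only group without DMSO, so a DMSO day and growth differed also in time in culture, plating and passage. All levels below are deposited signals read as log2 values, and a difference is the mean of the first group minus the mean of the second.

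Forkhead proteins bind DNA through a winged-helix domain named after the Drosophila gene fork head, and the letter after Fox groups them by how alike that domain is. Members act at very different places: FoxA factors open closed chromatin for endoderm genes, FoxD3 holds pluripotent cells in their state, FoxH1 carries the Nodal signal to DNA together with Smad proteins, FoxC and FoxF factors pattern mesoderm, FoxO factors are kept out of the nucleus by insulin and Akt signalling, FoxM1 drives genes of mitosis, and FoxP factors repress transcription as dimers. In the developing heart, Foxh1, Foxc1, Foxc2, Foxf1, Foxo1, Foxp1 and Foxm1 have each been tied to cardiac progenitors, vessels or muscle growth in mouse mutants.

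Most markers of the labelled states were present. Of 6 embryonal carcinoma markers, 4 to 5 were above log2 4 on a growth array, and 3 to 4 on a day 12 array. Among them, Zfp42 was dim on every array, growth included, and Dppa5a was above log2 4 on growth B alone. Pou5f1, which marks embryonal carcinoma cells, was at 9.94 and 8.49 at day 12 and at 14.12, 14.27 and 14.50 in growth. Of 7 cardiomyocyte markers, 7 were above log2 4 on both day 12 arrays, and 0 to 1 on a growth array. Between 39.6% and 42.5% of all probe sets were above log2 4 on an array, and the number of arrays, not a count of reads, limits precision here. The day 8 A array stood apart from its group: it correlated over all genes at 0.992 and 0.990 with the day 6 arrays, and at 0.967 and 0.956 with day 8 B and C. Where leaving it out changed whether a forkhead gene was called in a comparison, both results are therefore given. Day 8 means and differences include it unless stated. In whole cultures, fewer cells of a type and less RNA per cell cannot be told apart, which holds for every level below.

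A gene was called when its Benjamini-Hochberg adjusted p from limma over all 10803 tested genes was under 0.05 and its difference was at least 1 log2. Of the 18 tested forkhead genes, 14 were called in at least 1 of 9 comparisons (background 57.4% of all tested genes), and 13 by an F test over the 5 days (background 60.9%). At day 4, 7 of the 18 were called against growth (background 27.0%): Foxf1, Foxj3 and Foxn3 were higher, and Foxa3, Foxd3, Foxo1 and Foxq1 lower. At day 6, 7 were called (background 26.8%): Foxf1 and Foxk1 were higher, and Foxh1 joined the 4 lower ones. At day 8, 7 were called (background 31.0%): Foxf1 and Foxn3 were higher, and the 5 lower genes were those of day 6. Without day 8 A, 6 were called at day 8, Foxf1 being lost (background 33.4%). At day 10, 7 were called (background 38.0%): Foxf1 was higher, and Foxm1 joined the 5 lower genes. At day 12, 10 were called (background 41.9%): Foxf1, Foxo3 and Foxp1 were higher, and Foxo4 joined the 6 lower genes. The median difference of the 18 genes was 0.17 log2 at day 4 and 0.08 log2 at day 12, against 0.00 log2 over all tested genes on both days. Foxd3 and Foxa3 passed the filter of log2 4 through the 3 growth arrays alone, Foxq1 through these and 1 other array, and Foxf1 and Foxc1 through DMSO arrays alone, so a difference from growth was part of how they came to be tested and nothing is read from the member counts against the background. The 5 comparisons with growth share the same 3 growth arrays, so their counts are not independent of each other.

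**Figure D1:**
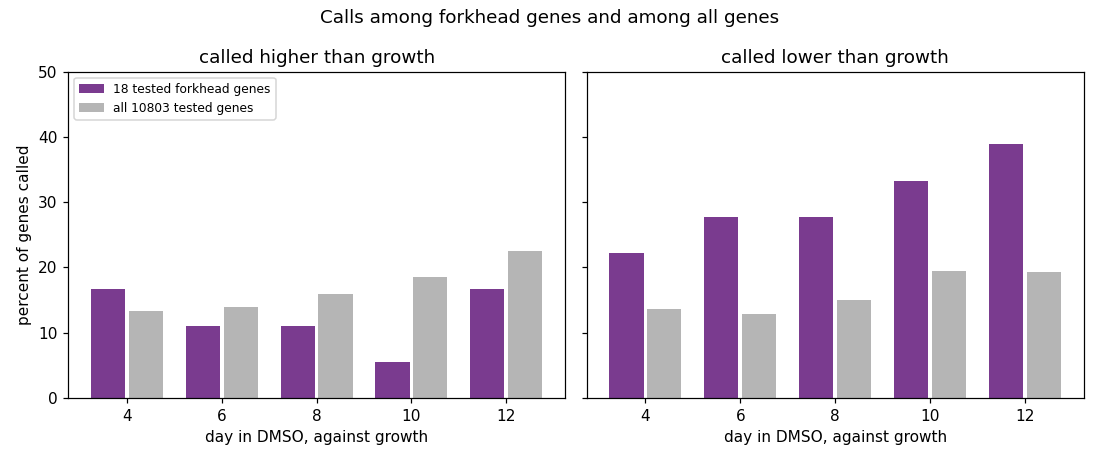
Percent of genes called higher (left) or lower (right) than growth at each DMSO day (x axis), for the 18 tested forkhead genes (purple) and for all 10803 tested genes (grey). The forkhead share lower than growth is 22.2% at day 4 and 38.9% at day 12, against 13.6% and 19.3% of all genes. The forkhead share higher than growth is 16.7% on both days, against 13.3% and 22.5% of all genes. Nothing is read from these shares, since some members passed the filter through a difference from growth.

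Each DMSO day was also set against the one before it. None of the 18 was called by limma between day 6 and day 4 (background 6.14%; 1, Foxc1, had an unadjusted p under 0.05). None was called between day 8 and day 6 (background 0.0185%; 3, Foxf1, Foxh1 and Foxk1, had an unadjusted p under 0.05), but without day 8 A, Foxf1 and Foxh1 were called, both lower at day 8 (background 5.67%). Between day 10 and day 8, 2 genes were called, Foxp1 higher and Foxn2 lower at day 10 (background 7.81%). Without day 8 A neither was called (0 of 18 by limma, 4 with an unadjusted p under 0.05; background 5.79%). Foxo4 alone was called, lower, between day 12 and day 10 (background 3.06%).

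**Figure D2:**
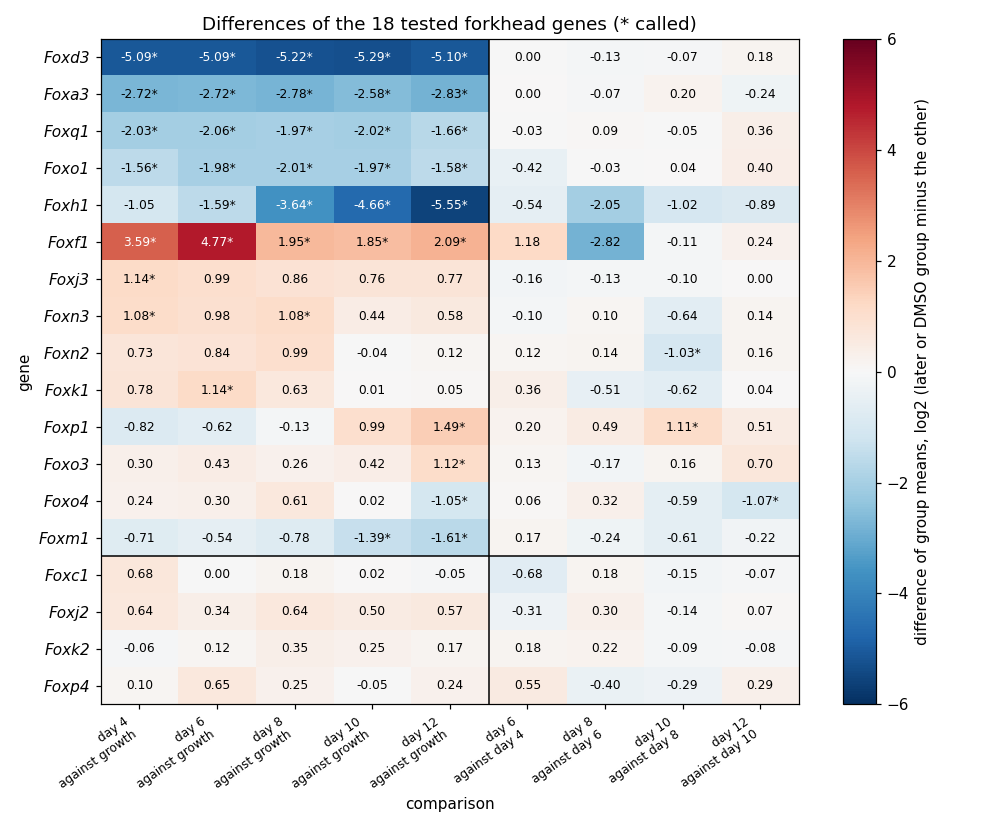
Differences of group means (colour and printed value, log2) of the 18 tested forkhead genes (rows) in 9 comparisons (columns), the DMSO or later group minus the other; an asterisk marks a call and the 4 genes under the line were never called. Foxd3, Foxa3, Foxq1 and Foxo1 are called lower on all 5 days, Foxf1 is called higher on all 5, and the Foxh1 difference from growth is -5.55 at day 12.

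Foxd3 of subfamily D, Foxa3 of A, Foxq1 of Q and Foxo1 of O were called lower than growth on all 5 days (4 of 18; background 7.06%). Their promoters are shown because these genes moved together between growth and day 4. Promoter windows from RefSeq (GRCm38.p6, 250 bases before to 50 after the start of transcription) were found for 11 of the 18 tested genes, 13 windows in all, and those of the 3 of these 4 genes with an entry are printed below. Capitals mark matches on either strand to the CCAAT box, to the GC box GGGCGG and to the TATA box TATAAA.
Foxd3 promoter, chr4:99656049-99656348, strand +: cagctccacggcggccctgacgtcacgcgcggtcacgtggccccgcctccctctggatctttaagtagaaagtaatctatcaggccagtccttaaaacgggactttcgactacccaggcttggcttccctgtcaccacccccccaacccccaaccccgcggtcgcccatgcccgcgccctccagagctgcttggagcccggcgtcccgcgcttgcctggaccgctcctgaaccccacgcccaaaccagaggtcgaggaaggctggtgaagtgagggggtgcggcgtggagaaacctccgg
Foxa3 promoter, chr7:19023490-19023789, strand -: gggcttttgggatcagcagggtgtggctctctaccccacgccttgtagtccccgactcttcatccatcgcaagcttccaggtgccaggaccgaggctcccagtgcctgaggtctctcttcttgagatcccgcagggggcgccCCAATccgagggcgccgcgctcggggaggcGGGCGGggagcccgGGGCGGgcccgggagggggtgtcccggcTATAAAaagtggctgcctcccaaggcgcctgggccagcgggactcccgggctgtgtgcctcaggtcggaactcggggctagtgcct
Foxo1 promoter, chr3:52268087-52268386, strand +: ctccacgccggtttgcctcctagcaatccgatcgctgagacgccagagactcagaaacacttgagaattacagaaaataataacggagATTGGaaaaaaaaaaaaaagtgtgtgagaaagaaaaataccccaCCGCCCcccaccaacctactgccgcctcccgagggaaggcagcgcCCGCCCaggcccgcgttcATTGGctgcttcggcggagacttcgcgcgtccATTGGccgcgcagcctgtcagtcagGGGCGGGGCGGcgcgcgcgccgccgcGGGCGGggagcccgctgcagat
The Foxd3 window holds none of the 6 motifs searched on both strands, which were these 3, the forkhead motifs TGTTTAC and TGTTTGC, and AATNCACA, a form of the site known for FoxH1. The Foxa3 window holds 1 CCAAT, 2 GGGCGG and 1 TATAAA, and the Foxo1 window 3 CCAAT and 5 GGGCGG, 2 of which overlap. Among 32851 promoter windows, 37.4% hold CCAAT, 35.7% GGGCGG, 13.6% TATAAA, 3.65% TGTTTAC, 5.07% TGTTTGC and 3.60% AATNCACA. A forkhead motif was matched in 2 of the 13 windows of tested forkhead genes, TGTTTGC in 1 window each of Foxj3 and Foxp1. The windows of Foxd3, Foxa3 and Foxo1 hold 65.7%, 69% and 61.3% G and C, against a median of 52.7% over all windows. Those of the other tested forkhead genes range from 48.7% (1 window of Foxp1) to 79.3% (Foxk2), with Foxj2 at 78.3% and Foxo3 at 75%. A high share was thus not particular to the genes that fell.

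Foxd3 (probe set 1422210_at), a repressor needed to keep the mouse epiblast and later the neural crest, was at 7.15, 7.01 and 7.94 in growth. In DMSO it read 2.28, 2.28 and 2.27 at day 4, 2.28 and 2.27 at day 6, 2.28, 2.11 and 2.06 at day 8, 1.99, 1.97 and 2.28 at day 10 and 2.39 and 2.15 at day 12. All 3 growth arrays were far above the cutoff and all 13 DMSO arrays were dim, so no order can be read among the days. The level was at least 10.3-fold lower at day 4 than in growth (difference -5.09 ± 0.21 log2 (SE, adjusted p = 4.86e-10)), and the same bound holds for the 4 later days, with adjusted p between 2.74e-10 and 1.99e-09. The SE pools the spread of all groups, and the SD was 0.50 in growth but 0.003 at day 4. The SE and the p-values thus understate the spread of the growth arrays. Foxd3 has 1 probe set on the array, so no second one could be compared.

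Foxa3 (1431900_a_at), which acts in liver and gut endoderm, was at 5.01, 5.76 and 6.24 in growth. The DMSO arrays read 2.95, 2.95 and 2.95 at day 4, 2.97 and 2.93 at day 6, 2.94, 2.99 and 2.73 at day 8, 2.96, 2.78 and 3.53 at day 10 and 2.73 and 2.96 at day 12. The growth arrays spread over more than 1 log2 but none overlapped a DMSO array, and every DMSO array was dim. The SD was 0.62 in growth but 0.004 at day 4, so the pooled SE of Foxa3 understates the growth spread too. It was at least 3.18-fold lower at day 4 than in growth (difference -2.72 ± 0.26 log2 (SE, adjusted p = 2.07e-06)), with differences on the later days between -2.83 and -2.58 log2. Foxq1 (1438558_x_at), known in mouse for hair shaft and stomach mucin defects when lost, was at 5.76, 5.61 and 5.74 in growth. At day 4 it read 3.82, 3.56 and 3.63, at day 6 3.78 and 3.50, at day 8 3.55, 3.86 and 3.77, at day 10 3.79, 3.46 and 3.80 and at day 12 3.58 and 4.51. Here 1 DMSO array, day 12 C, rose above the cutoff. Foxq1 was at least 3.25-fold lower at day 4 than in growth (difference -2.03 ± 0.21 log2 (SE, adjusted p = 3.66e-06)) and was called lower at day 12 too (difference -1.66 ± 0.23 log2 (SE, adjusted p = 3.49e-05)). With the dim day 12 A and all other values under 4 set to log2 4, the day 12 difference was -1.45 log2. Its second probe set was called lower on all 5 days too, with differences between -2.38 and -2.34 log2 in a fit of every probe set (background 25.4%, 24.5%, 28.6%, 35.2% and 39.6% of probe sets called at days 4 to 12). The calls of Foxd3, Foxa3 and Foxq1 on the 5 days held in every leave-one-out fit and every alternative that tested them. Since these genes passed the filter wholly or mostly through growth arrays, this is no separate support for the difference. The genes moved with the embryonal carcinoma markers, whose summed linear signal was 397 to 5240 on DMSO arrays and 24224 to 30880 on growth arrays, and the part of this in the result was not tested.

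**Figure D3:**
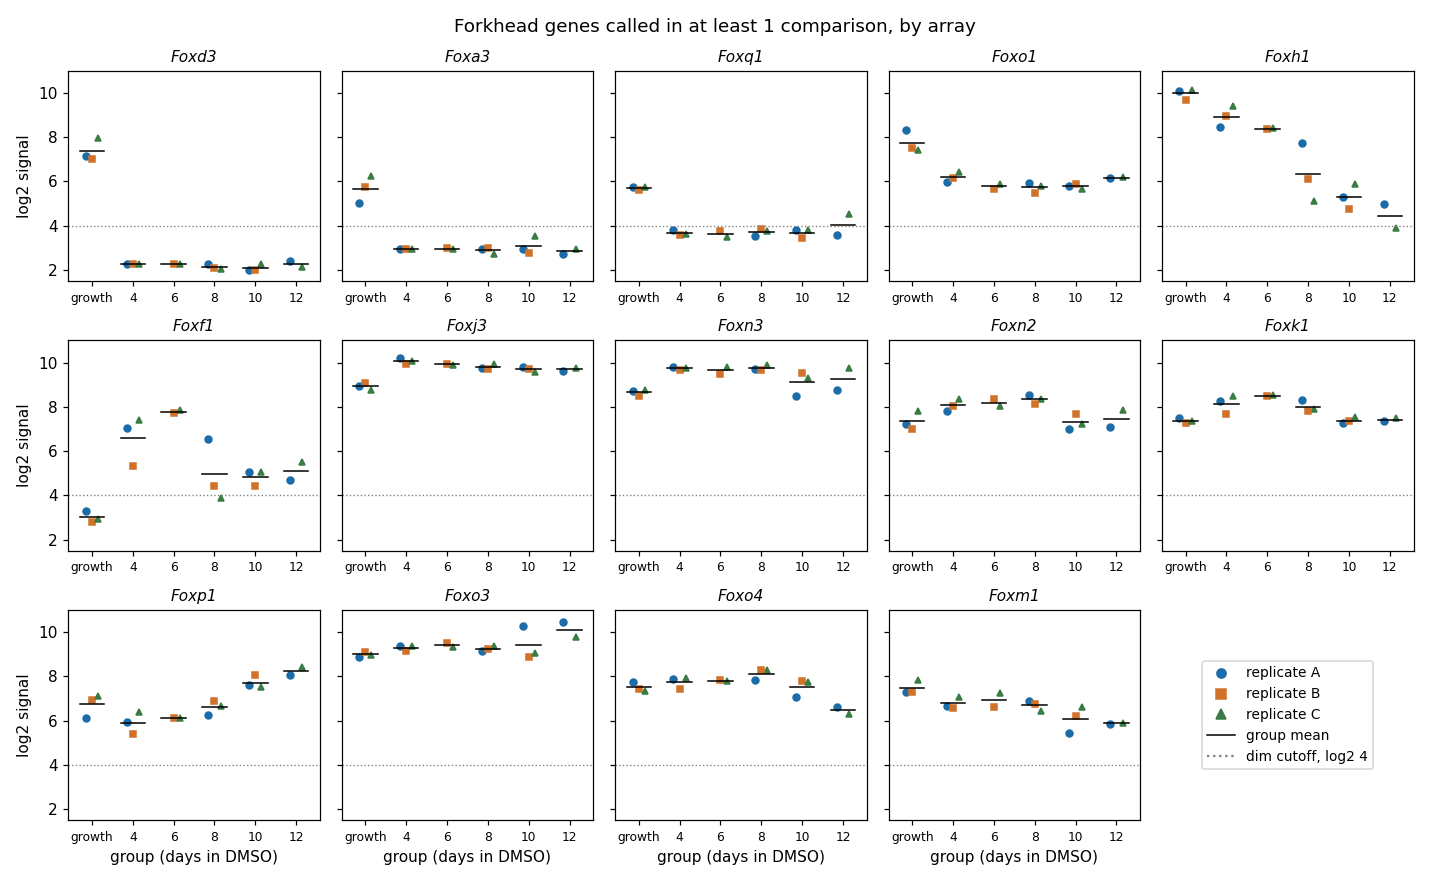
Log2 signal (y axis) of the 14 called forkhead genes on each array by group (x axis), with a symbol per replicate letter, a bar at the group mean and a dotted line at the dim cutoff of log2 4. Foxd3 drops below the line on all 13 DMSO arrays, Foxf1 peaks at day 6, and the Foxh1 group means fall from day 4 to day 12. The day 8 A array lies apart from B and C for Foxh1 and Foxf1.

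Foxh1 (1422213_s_at) is the forkhead partner of Smad2 and Smad3 in Nodal and activin signalling. Its level was 10.10, 9.68 and 10.14 in growth. In DMSO it read 8.45, 8.93 and 9.39 at day 4, 8.37 and 8.40 at day 6, 7.76, 6.12 and 5.11 at day 8, 5.31, 4.74 and 5.89 at day 10 and 4.97 and 3.89 at day 12. The group means went down with time, and day 12 C was the only array below the cutoff. Day 8 A (7.76) lay between day 6 and the other day 8 arrays, and day 8 C (5.11) was below day 10 A and C. With all arrays neither late step was called. The difference was -1.02 log2 between day 10 and day 8 (limma adjusted p = 0.21) and -0.89 log2 between day 12 and day 10 (adjusted p = 0.491). In leave-one-out fits the first of these ranged from -1.63 to -0.30 log2. Foxh1 was 12.5-fold lower at day 8 than in growth (difference -3.64 ± 0.53 log2 (SE, adjusted p = 6.39e-05)) and 25.3-fold lower at day 10 (difference -4.66 ± 0.53 log2 (SE, adjusted p = 5.09e-06)). With day 8 A left out, the day 8 difference from growth was -4.36 log2. At day 12 the difference was -5.55 ± 0.59 log2 (SE, adjusted p = 3.01e-06), and -5.49 log2 with the dim value set to log2 4. At day 4 the difference of -1.05 ± 0.53 log2 (SE, adjusted p = 0.118) was not called, although no day 4 array overlapped a growth array, and without day 8 A it was called (adjusted p = 0.0295). The day 6 call (difference -1.59 ± 0.59 log2 (SE, adjusted p = 0.0422)) was lost in 8 of 16 leave-one-out fits and in 4 other alternatives. Without day 8 A the difference between day 8 and day 6 was -2.77 log2 (adjusted p = 0.00201), against -2.05 log2 (adjusted p = 0.271) with it. All 3 Foxh1 probe sets were called lower at days 8, 10 and 12, the other pair by -4.85 to -4.48 log2 at day 8 and -6.83 to -6.51 log2 at day 12.

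Of 16 genes listed as Nodal pathway components and Foxh1 targets, 14 were tested. At day 4, 8 were higher and 2 lower than growth, with a median difference of 1.05 log2, against 0.00 over all genes, of which 13.3% were called higher and 13.6% lower. By day 6, 3 were higher and 4 lower, and 7 of the 14 were lower at day 6 than at day 4 with 0 higher (all genes 2.62% lower and 3.52% higher). At day 12, 3 were higher and 5 lower (all genes 22.5% and 19.3%). Mixl1, a homeobox gene of the primitive streak, averaged 11.99 ± 0.69 at day 4 against 2.39 ± 0.30 in growth (SD, n = 3 each, adjusted p = 2.02e-11). The rise was at least 254-fold. Lhx1, a LIM homeobox gene of early mesoderm, averaged 9.64 ± 1.71 at day 4 against 2.73 ± 0.04 in growth (adjusted p = 6.11e-07; at least 49.8-fold), and Eomes, a T-box gene of the streak, 11.70 ± 0.40 at day 4 against 7.80 ± 0.16 in growth (adjusted p = 1.96e-06). Lefty1, a secreted Nodal inhibitor, moved the other way, at 5.36 ± 0.43 at day 4 against 11.41 ± 0.51 in growth (adjusted p = 7.89e-08). At day 4, when Mixl1 and Eomes were high, Foxh1 was at 8.45 to 9.39.

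Foxf1 (1434939_at), a factor of lateral plate and gut mesoderm, was the one forkhead gene called higher on all 5 days (1 of 18; background 6.36%). It was at 3.28, 2.78 and 2.93 in growth. The DMSO arrays read 7.02, 5.34 and 7.40 at day 4, 7.70 and 7.84 at day 6, 6.55, 4.44 and 3.87 at day 8, 5.07, 4.43 and 5.04 at day 10 and 4.67 and 5.50 at day 12. Growth arrays were all dim, the 2 day 6 arrays were the highest and nearly equal, and day 8 A sat above day 8 B and C, of which C was itself dim. Foxf1 was at least 6.02-fold higher at day 4 than in growth (difference 3.59 ± 0.60 log2 (SE, adjusted p = 0.000261)) and at least 13.6-fold higher at day 6 (difference 4.77 ± 0.67 log2 (SE, adjusted p = 7.76e-05)). The bound was 1.94-fold at day 8, 1.80-fold at day 10 and 2.12-fold at day 12. Those 3 later calls were lost when values under log2 4 were set to 4, and the day 8 call also in a fit of those groups alone and without day 8 A (difference 1.16 log2, adjusted p = 0.0598), the day 10 call without growth B and the day 12 call without day 12 C. Without day 8 A, the Foxf1 difference between day 8 and day 6 was -3.61 log2 (adjusted p = 0.001). A second probe set (1423013_at) moved less and was called higher at day 6 alone, at 5.60 and 5.59 against 4.12, 3.42 and 3.97 in growth (difference 1.76 log2, adjusted p = 0.00213). The other F member, Foxf2 of intestinal and lung mesenchyme, was above the cutoff on 1 array, day 4 A at 4.38, and between 3.50 and 3.92 elsewhere.

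Foxc1, which with Foxc2 specifies paraxial and cardiac mesoderm and vessels, passed the filter through 2 day 4 arrays. Its used probe set (1419485_at) read 3.28, 4.09 and 4.15 at day 4 against 3.23, 3.12 and 3.14 in growth, and was called in no comparison (day 4 difference 0.68 ± 0.20 log2 (SE, adjusted p = 0.0135)). Its second probe set (1419486_at) read 2.63, 5.15 and 4.38 at day 4 against 2.68, 2.58 and 2.53 in growth, and was called higher at day 4 in the fit of every probe set (difference 1.45 log2, adjusted p = 0.0268; background 25.4%). On both probe sets B and C were high at day 4 and A was at the growth level. Foxc2 stayed dim, with its highest value, 3.95, on day 12 C, the array on which the second Foxc1 probe set read 4.25. Foxl1 of gut mesenchyme and Foxl2 of the ovary stayed at or below 2.54 on every array, and Foxl2os lay between 2.34 and 2.55.

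Of 18 genes listed as partners or targets of FoxC, FoxF and FoxL factors in mesoderm, 13 were tested. At day 12, 8 were higher and 2 lower than growth, with a median difference of 3.18 log2. Over all genes 22.5% were called higher and 19.3% lower that day. Snai2, a zinc finger factor of migrating mesenchyme, averaged 9.60 ± 0.01 at day 12 against 3.78 ± 0.15 in growth (SD, n = 2 and n = 3; adjusted p = 3.91e-09), at least 48.5-fold higher. Bmp4, a ligand of the mesoderm that expresses Foxf1, averaged 10.49 ± 0.16 at day 12 against 4.87 ± 0.40 in growth (adjusted p = 2.86e-08), Kdr, the VEGF receptor of vessel and heart progenitors, 7.22 ± 0.10 at day 12 against 2.32 ± 0.28 in growth (adjusted p = 1.4e-06), and the chemokine gene Cxcl12 10.52 ± 0.03 at day 12 against 5.88 ± 1.22 in growth (adjusted p = 0.000293). On the same day 12 arrays Foxf1 was at 4.67 and 5.50.

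Foxa1 and Foxa2, the pioneer factors of definitive endoderm, were not tested. Foxa1 was dim on all arrays (2.29 to 3.02). Foxa2 was at 2.14, 2.12 and 2.12 in growth, 2.13, 2.13 and 2.13 at day 4, 2.14 and 2.11 at day 6, 2.13, 4.79 and 2.14 at day 8, 2.15, 2.11 and 2.74 at day 10 and 3.31 and 2.59 at day 12, so day 8 B was the only array above the cutoff, and day 12 A came next at 3.31. Day 8 B was also the day 8 array with the highest Ttr, a serum carrier gene of yolk sac and liver: Ttr read 3.75, 9.78 and 7.74 at day 8 on A, B and C. Ttr was higher still on day 10 C (10.07) and day 12 C (10.10), where Foxa2 was dim (2.74 and 2.59). Of the 8 endoderm markers, 3 at most were above the cutoff at day 8 and 4 on both day 12 arrays. The defining markers Sox17, Sox7 and Hnf4a never passed the cutoff. The summed linear signal of the 8 was 3613 to 4605 at day 12, against 63 to 68 in growth. The largest part of the day 12 sum was Gata6, at 11.07 and 11.38, a gene also made in heart muscle. Of 14 genes listed as FoxA partners and endoderm targets, 7 were tested. At day 8, 4 were higher and 1 lower than growth, and at day 12, 5 were higher and 0 lower (5 and 1 without day 8 A). Over all genes 31.0% were called either way at day 8, and 22.5% higher and 19.3% lower at day 12. The zinc finger factor Gata6 averaged 9.67 ± 0.68 at day 8 against 3.86 ± 0.41 in growth (SD, n = 3 each; adjusted p = 2.53e-09) and Gata4 7.22 ± 0.12 at day 8 against 3.33 ± 0.26 in growth (adjusted p = 9.41e-08), both of which are also made in heart muscle. Ttr averaged 7.09 ± 3.07 at day 8 against 2.88 ± 0.02 in growth (adjusted p = 0.00469) and Cdx2, a homeobox gene of the posterior body and gut, 6.21 ± 0.99 at day 8 against 2.93 ± 0.40 in growth (adjusted p = 2.21e-05).

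The 3 FoxO genes, which in mouse act downstream of insulin, Akt and stress signals, went different ways. Foxo1 (1416982_at), the member needed for embryonic vessels, was at 8.32, 7.49 and 7.44 in growth. At day 4 it read 5.99, 6.15 and 6.43, at day 6 5.67 and 5.87, at day 8 5.94, 5.50 and 5.77, at day 10 5.77, 5.88 and 5.68 and at day 12 6.16 and 6.18. Every DMSO array was below every growth array, and growth A was the highest of all. Foxo1 was 2.94-fold lower at day 4 than in growth (difference -1.56 ± 0.22 log2 (SE, adjusted p = 5.89e-05)), 4.04-fold lower at day 8 (difference -2.01 ± 0.22 log2 (SE, adjusted p = 5.08e-06)) and 2.98-fold lower at day 12 (difference -1.58 ± 0.24 log2 (SE, adjusted p = 8.11e-05)). Of its other 3 probe sets, 2 were called lower on all 5 days and 1 was dim throughout.

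Foxo3 (1434831_a_at), a factor of quiescence and stress resistance, was at 8.90, 9.11 and 8.98 in growth. In DMSO it read 9.36, 9.16 and 9.38 at day 4, 9.52 and 9.33 at day 6, 9.17, 9.24 and 9.36 at day 8, 10.27, 8.90 and 9.08 at day 10 and 10.44 and 9.79 at day 12. It stayed within 8.90 to 9.52 through day 8, then the A arrays of day 10 and day 12 and, less so, day 12 C were higher. At day 12 it was 2.17-fold higher than in growth (difference 1.12 ± 0.32 log2 (SE, adjusted p = 0.00755)), a call lost without day 12 A and with the mean of its probe sets, and its other probe set above the filter was not called (difference 0.67 log2, adjusted p = 0.0161). Foxo4 (1456753_at), the X-linked member, was at 7.77, 7.45 and 7.34 in growth. The DMSO arrays read 7.87, 7.45 and 7.94 at day 4, 7.84 and 7.79 at day 6, 7.85, 8.28 and 8.27 at day 8, 7.08, 7.79 and 7.76 at day 10 and 6.63 and 6.31 at day 12. Both day 12 arrays lay below every other array. Foxo4 was 2.07-fold lower at day 12 than in growth (difference -1.05 ± 0.24 log2 (SE, adjusted p = 0.00205)) and 2.10-fold lower than at day 10 (difference -1.07 ± 0.24 log2 (SE, adjusted p = 0.0252)). The second call was lost in 4 of 16 leave-one-out fits, with the replicate block and with a fit of those 2 groups alone, and the first without growth A or day 12 C.

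Of 21 genes of the FoxO circuit, upstream kinases and phosphatases and known targets, 16 were tested. The count higher than growth was 7 at day 4, 6 at day 6, 8 at day 8 (7 without day 8 A), 9 at day 10 and 11 at day 12, with 1 lower on each day, and the median difference at day 12 was 1.38 log2, against 0.00 over all genes. The share of all genes called higher also grew, being 13.3% at day 4, 18.5% at day 10 and 22.5% at day 12. Akt1, the kinase that sends FoxO proteins out of the nucleus, averaged 10.63 ± 0.24 at day 12 against 6.55 ± 0.33 in growth (SD, n = 2 and n = 3; adjusted p = 5.62e-08). Among targets, the cyclin gene Ccng2 averaged 11.03 ± 0.20 at day 12 against 7.14 ± 0.72 in growth (adjusted p = 1.99e-06), the stress gene Sesn1 8.08 ± 0.09 at day 12 against 5.88 ± 0.99 in growth (adjusted p = 0.000428) and the DNA damage gene Gadd45a 8.01 ± 0.80 at day 12 against 5.83 ± 0.53 in growth (adjusted p = 0.025).

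Foxm1 (1448834_at), which switches on genes of G2 and mitosis and is known for its need in mouse heart muscle growth, was at 7.31, 7.31 and 7.86 in growth. At day 4 it read 6.68, 6.59 and 7.07, at day 6 6.64 and 7.27, at day 8 6.90, 6.77 and 6.46, at day 10 5.45, 6.23 and 6.62 and at day 12 5.84 and 5.92. The day 10 and day 12 arrays were all below the growth arrays, and day 10 A was the lowest of all. It was 2.63-fold lower at day 10 than in growth (difference -1.39 ± 0.28 log2 (SE, adjusted p = 0.000666)) and 3.06-fold lower at day 12 (difference -1.61 ± 0.31 log2 (SE, adjusted p = 0.000497)). A second probe set (1417748_x_at) was called lower at day 12 alone (difference -1.12 log2, adjusted p = 0.00799), and the day 10 call was lost with the mean of the probe sets. Of 20 genes listed as FoxM1 partners and mitotic targets, 19 were tested: 5 were lower than growth at day 4, 3 at day 6, 8 at day 8 (9 without day 8 A), 11 at day 10 and 11 at day 12, and 0 were higher on any day. Of all genes, 13.6% were called lower at day 4, 12.9% at day 6 and 15.0% at day 8 (16.1% without day 8 A). The share was 19.5% at day 10 and 19.3% at day 12, and 13.3% to 22.5% of all genes were called higher on these days. Their median difference was -1.20 log2 at day 10 and -1.30 log2 at day 12. The mitotic kinase gene Aurka averaged 7.94 ± 0.13 at day 10 against 10.68 ± 0.33 in growth (SD, n = 3 each; adjusted p = 2.66e-07) and Plk1 8.41 ± 0.10 at day 10 against 11.03 ± 0.22 in growth (adjusted p = 2.08e-07). The kinesin gene Kif20a averaged 8.26 ± 0.23 at day 10 against 10.26 ± 0.06 in growth (adjusted p = 9.59e-06) and the phosphatase gene Cdc25c 5.83 ± 0.27 at day 10 against 7.74 ± 0.22 in growth (adjusted p = 3.02e-05).

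Of the FoxP genes, Foxp1 (1435222_at), which is needed in mouse for heart muscle and outflow tract growth, was at 6.14, 6.93 and 7.13 in growth. In DMSO it read 5.95, 5.39 and 6.41 at day 4, 6.12 and 6.13 at day 6, 6.27, 6.87 and 6.69 at day 8, 7.60, 8.05 and 7.52 at day 10 and 8.05 and 8.41 at day 12. Day 4 and day 6 arrays were low, and day 10 and day 12 arrays were all above every growth array. Foxp1 was 2.81-fold higher at day 12 than in growth (difference 1.49 ± 0.33 log2 (SE, adjusted p = 0.00128)), with no leave-one-out fit and no alternative losing that call. At day 10 the difference of 0.99 ± 0.29 log2 (SE, adjusted p = 0.00965) fell just short of the 1 log2 needed, and at day 4 that of -0.82 ± 0.29 log2 (SE, adjusted p = 0.0317) was not called. Between day 10 and day 8 it was 2.16-fold higher at day 10 (difference 1.11 ± 0.29 log2 (SE, adjusted p = 0.0209)), not called without day 8 A (difference 0.94 log2, adjusted p = 0.0889) or without day 10 B, with the mean of its probe sets or in a fit of those groups alone. Of its 8 probe sets, 6 were above the filter and all 6 were called higher at day 12 in the fit of every probe set, by 1.24 to 2.32 log2 (background 39.6%). One of the 6 (1421140_a_at) was also called lower at day 4 (by just over the 1 log2 needed, adjusted p = 0.0211). These share RNA and arrays and are not replicates. Cardiomyocyte markers were also high when Foxp1 was highest: their summed linear signal was 81087 to 83653 at day 12 and 44219 to 54453 at day 10, against 53 to 79 in growth. The marker sum was 117 to 226 at day 4 and 686 to 800 at day 6, when the Foxp1 mean was below growth. The largest part of the day 6 sum was Tnni1, at 9.38 and 9.20, while Myh6, Actc1, Nkx2-5 and Myl7 were dim at day 6. At day 4, Tnni1 was at 6.04, 4.76 and 5.60 and Myl7 at 3.80, 6.65 and 7.01. At day 8 the sum was 799 to 10527 and Foxp1 overlapped growth. The part of these markers in the result was not tested.

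Foxp4 (1429719_at), a relative of Foxp1 in lung and gut, ranged over 5.94 to 7.40 with no call, while its second probe set was called higher at day 6 in the fit of every probe set (difference 1.24 log2, adjusted p = 0.0175; background 24.5%). Foxp2 of the brain, with 6 probe sets, and Foxp3 of regulatory T cells were dim, at most 3.54 and 2.79.

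**Figure D4:**
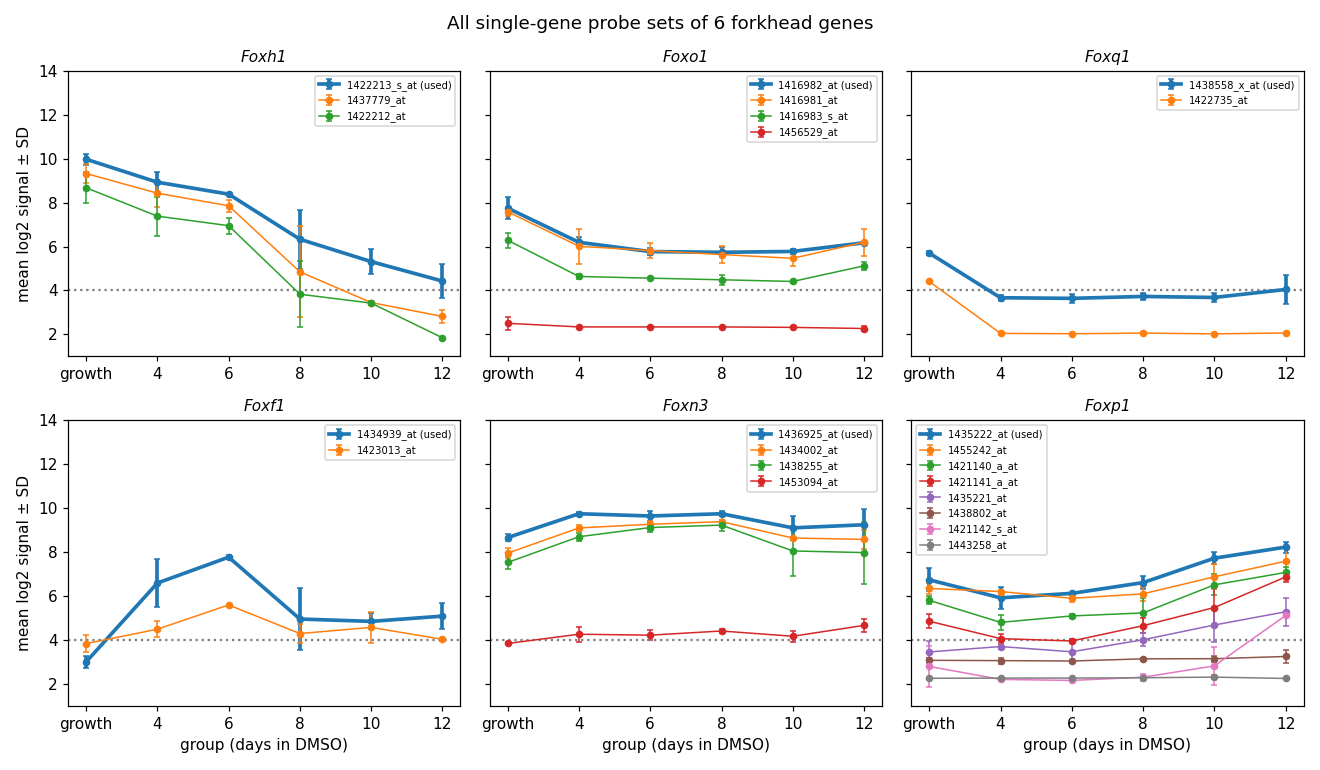
Mean log2 signal ± SD (y axis) of every single-gene probe set of 6 forkhead genes by group (x axis), with the one used drawn thick and a dotted line at the dim cutoff. The 3 Foxh1 sets fall together, the 6 brighter Foxp1 sets are all highest at day 12, and the 2 Foxf1 sets both peak at day 6 but to different levels.

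The 2 FoxK genes, repressors that bind Sin3 and act in autophagy and sugar breakdown, moved little. Foxk1 (1434655_at) was at 7.47, 7.27 and 7.35 in growth. The DMSO arrays read 8.27, 7.67 and 8.48 at day 4, 8.49 and 8.52 at day 6, 8.29, 7.82 and 7.88 at day 8, 7.25, 7.35 and 7.53 at day 10 and 7.35 and 7.48 at day 12. Days 4 to 8 were above growth and days 10 and 12 overlapped it. Only day 6 was called, 2.20-fold higher than growth (difference 1.14 ± 0.22 log2 (SE, adjusted p = 0.000934)), and no alternative lost that call. Foxk2 ranged over 7.94 to 8.92 and was never called. Of 13 listed partners of FoxP and FoxK factors, 12 were tested, with 1 higher and 1 lower than growth at day 4, 0 called at day 6, and 0 higher and 4 lower at days 10 and 12. Of all genes, 13.3% were called higher and 13.6% lower at day 4, and 26.8% either way at day 6. At days 10 and 12, 18.5% and 22.5% were called higher and 19.5% and 19.3% lower. The corepressor genes Sin3a (8.03 ± 0.12 at day 10 against 9.46 ± 0.05 in growth; adjusted p = 2.22e-06) and Ctbp2 (9.78 ± 0.23 at day 10 against 11.10 ± 0.41 in growth; adjusted p = 7.26e-05) were among those lower at day 10 (mean ± SD, n = 3 each). The NuRD subunit gene Mta1 averaged 8.81 ± 0.33 at day 10 against 10.03 ± 0.28 in growth (adjusted p = 0.000501) and the histone deacetylase gene Hdac1 10.30 ± 0.15 at day 10 against 11.35 ± 0.02 in growth (adjusted p = 1.03e-05).

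Foxj3 and Foxn3 were bright in growth and called higher at day 4. Foxj3 (1435362_at), tied in mouse to muscle fibre type and Mef2c, was at 8.95, 9.09 and 8.76 in growth. At day 4 it read 10.20, 9.95 and 10.08, at day 6 9.94 and 9.90, at day 8 9.74, 9.72 and 9.91, at day 10 9.79, 9.70 and 9.59 and at day 12 9.63 and 9.77. Every DMSO array was above every growth array and day 4 was highest. The day 4 level was 2.21-fold that of growth (difference 1.14 ± 0.14 log2 (SE, adjusted p = 1.37e-05)), while the differences of 0.76 to 0.99 log2 on later days were under the 1 log2 needed. The day 4 call was lost with the mean of its probe sets, and a second bright probe set was not called then (difference 0.40 log2, adjusted p = 0.154). Foxj2 ranged over 6.42 to 7.64 and was never called. Foxj1, the switch for motile cilia, was dim on every array (2.75 to 3.31). Of 14 listed cilium targets of Foxj1, only 4 were tested. Rsph1 of the radial spoke averaged 3.65 ± 0.28 at day 4 against 5.77 ± 0.22 in growth (SD, n = 3 each; adjusted p = 1.59e-07), Ccdc40 of the axoneme 4.10 ± 0.80 at day 4 against 5.55 ± 0.41 in growth (adjusted p = 0.00229) and Rfx3, a factor of ciliary genes, 8.29 ± 0.29 at day 4 against 6.87 ± 0.16 in growth (adjusted p = 4.51e-05). The cilium markers Tekt1, Spag6 and Hydin were dim throughout, and Rfx2 was above the cutoff on 1 array, day 12 C at 4.19.

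Foxn3 (1436925_at), a repressor first known as a checkpoint suppressor, was at 8.72, 8.49 and 8.77 in growth. In DMSO it read 9.81, 9.66 and 9.77 at day 4, 9.49 and 9.79 at day 6, 9.69, 9.66 and 9.88 at day 8, 8.47, 9.51 and 9.32 at day 10 and 8.74 and 9.75 at day 12. Through day 8 all DMSO arrays were above growth, and from day 10 the A arrays were back at the growth level while B and C were not. The level was 2.12-fold that of growth at day 4 (difference 1.08 ± 0.27 log2 (SE, adjusted p = 0.00447)) and 2.12-fold at day 8 (difference 1.08 ± 0.27 log2 (SE, adjusted p = 0.00406)), both calls being lost without growth B and the day 4 one also with the mean of its probe sets. A second probe set (1434002_at) was called higher at days 4, 6 and 8 and another one (1438255_at) at days 6 and 8. Foxn2 (1454831_at), its closest relative among those tested, was at 7.24, 6.99 and 7.82 in growth. The DMSO arrays read 7.83, 8.04 and 8.36 at day 4, 8.34 and 8.05 at day 6, 8.55, 8.12 and 8.33 at day 8, 7.02, 7.69 and 7.21 at day 10 and 7.07 and 7.87 at day 12. Days 4 to 8 were above growth, day 4 A (7.83) only just, and days 10 and 12 overlapped growth. Foxn2 was 2.04-fold lower at day 10 than at day 8 (difference -1.03 ± 0.27 log2 (SE, adjusted p = 0.0197)), a call lost without day 8 A (adjusted p = 0.0777), without day 10 A, without day 10 C and in a fit of those groups alone, and no day was called against growth. Foxn1 of the thymus and Foxn4 of the retina were dim.

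Subfamilies B, E, I, L and S had no tested gene. Foxb1, Foxb2, Foxe3, Foxi1 and Foxs1, genes of the neural tube, lens, inner ear and vessels, lay between 1.44 and 2.47 on every array. Foxd1, Foxd2 and Foxd4 were also dim, so that Foxd3 alone represented subfamily D. Several members are neighbours in the RefSeq annotation: Foxq1, Foxf2 and Foxc1 lie side by side on chromosome 13, and Foxf1, Foxc2 and Foxl1 lie together on chromosome 8 with 1 other protein-coding gene between Foxf1 and Foxc2. Foxq1 was lower on all 5 days. Foxf2 had its highest value on day 4 A (4.38), with day 4 B and C at 3.69 and 3.65. Foxc1 had its highest values on day 4 B and C (4.09 and 4.15), with day 4 A at 3.28. The high day 4 arrays of Foxf2 and Foxc1 were thus not the same. Foxf1 was above the cutoff on 12 arrays, and Foxc2 and Foxl1 were dim on all 16, so they show no course to set beside it.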

How the data were processed

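The deposited values are log2-scale signals of 45101 probe sets that the authors made from the arrays with GCRMA, per the submitters' processing notes. The software version and the log base are not given in the sources used here, and the range of 0.86 to 15.9 was read as log2. Probe sets were named through the platform annotation, and 34958 named 1 gene. Probe sets above log2 4 on at least 2 arrays entered, the one with the highest mean was kept per gene, and limma 3.58.1 (R 4.3.3; lmFit and eBayes, 1 mean per group, 16 arrays, 10 residual degrees of freedom) tested 10803 genes, with Benjamini-Hochberg adjustment within each comparison. Where all arrays of a group were dim, the fold was bounded with log2 4 in its place. Other probe sets were compared in a fit of every single-gene probe set, chosen after seeing the data. GCRMA pulls unexpressed probe sets to a low plateau, so differences that involve dim values have no exact size. The plateau arrays also enter the pooled spread, so the SE and p of a gene dim in most groups can be too small. The fit was tested on simulated data. The members, gene lists and tests were chosen with earlier results of these data known. Named genes of a list are up to 4 called ones with the largest difference at the day with most calls. Whether samples came from separate cultures is not stated beyond their being called independent, so p-values measure the spread between these samples. Alternatives covered the filter, scaling, floor, variance model, probe set choice, replicate block, groups in the fit and leaving out each array. Promoter windows came from RefSeq, and all 38 symbols matched its gene identifiers.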

Additional observations from a re-analysis of the deposited data

How the results depend on the processing

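Of 162 pairs of a tested forkhead gene and a comparison, 41 were called, and 28 of these kept their call in all 16 leave-one-out fits and in every other alternative that tested them. The 28 include every call of Foxd3, Foxa3 and Foxq1, which passed the filter wholly or mostly through growth arrays. For these genes a kept call is no separate support. No call changed its direction. In the 5 comparisons with growth and the F test, every alternative kept the number of called genes within 1.5 times the value reported. Leaving out 1 array gave 6 to 8 called genes at day 4, 6 to 8 at day 6, 6 to 8 at day 8, 7 to 8 at day 10 and 8 to 10 at day 12 against growth, and 12 to 14 by the F test. Between neighbouring days it gave 0 to 0 for day 6 against day 4, 0 to 2 for day 8 against day 6, 0 to 3 for day 10 against day 8 and 0 to 2 for day 12 against day 10. Averaging all probe sets of a gene gave 1 called gene for day 10 against day 8 and 2 for day 12 against day 10, where a fit of only the groups compared gave 0 for each; the cause was not tested. The replicate letters were not taken as pairing the samples, since the labels do not say what a letter shares and 13 of 35 same-letter pairs of arrays had deviations from the group means that correlated over 0.1 (range -0.21 to 0.32, median 0.06, against -0.03 for different letters). As a hint from the data, 12 of 16 arrays correlated best with their own letter. A fit with the replicate block gave 0 called genes for day 12 against day 10, and lost 2 of the 41 calls, Foxh1 at day 6 and Foxo4 at day 12 against day 10. The stricter filter of log2 6 left Foxa3, Foxc1 and Foxq1 untested. Groups of 2 or 3 arrays limit precision, and 1 probe set per gene decides Foxd3 and Foxa3.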
